A study of Homo sapiens with 15 samples.

Results

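The genes described here are 36 genes of the antioxidant and detoxification response to the transcription factor NRF2, among them NFE2L2, which encodes NRF2, and KEAP1, which encodes its inhibitor. The rule is a list of gene names that uses no measured value, although other results of these data were known when the list was drawn up, and a probe counted as theirs where the array files give it one of these names. Of the 36 genes, 35 had at least 1 probe, with 63 probes in all, out of 30484 gene names on the array. No probe carries the name AKR1C2, so that no value is given for it.

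The measurements are oligonucleotide arrays with 2 dyes of A549 cells, an established line of human lung adenocarcinoma cells. On each array, cells transfected with a precursor oligonucleotide that overexpresses a miRNA were compared with cells transfected with an antisense oligonucleotide (antagomir) that suppresses the same miRNA. Both kinds of oligonucleotide were used at 20 nM, and RNA was taken 24 h after transfection. The compared miRNAs were miR-766, miR-629*, miR-574-3p, miR-565 and miR-181d, each on 3 arrays, which makes 15 arrays in all. No untransfected cells and no cells with a control oligonucleotide are part of these arrays, so that every ratio sets 2 transfected populations against each other. Arrays of one miRNA carry replicate numbers, and whether they stand for separate transfections is not given in the labels. The p values may therefore reflect a spread that is only technical.

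NRF2 is the main transcriptional regulator of the response to oxidants and electrophiles. KEAP1 holds NRF2 in the cytoplasm and presents it to a ubiquitin ligase for degradation. Oxidants disable KEAP1, and NRF2 then enters the nucleus, pairs with a small MAF protein such as MAFG and binds antioxidant response elements near genes of glutathione synthesis, thioredoxin reduction, NADPH supply, carbonyl reduction and drug export. A549 cells carry a mutant KEAP1, and NRF2 is constitutively active in them, so that these genes run at a high level without any stimulus.

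On every array the overexpressing cells were labeled with Cy5 and the antagomir cells with Cy3. A ratio seen with every miRNA therefore cannot be told apart from a difference between the dyes, whereas a bias of the dyes that all arrays share drops out when one miRNA is set against the others. The arrays lay on 4 slides, with miR-181d and replicate 1 of miR-565 on slide 1, replicates 2 and 3 of miR-565 and replicates 1 and 2 of miR-574-3p on slide 2, replicate 3 of miR-574-3p and miR-629* on slide 3, and miR-766 by itself on slide 4. For miR-766 the slide and the miRNA cannot be told apart. Replicate 1 of miR-565 stood apart. The SD of its log2 ratios over all tested genes was 0.963, against 0.296 to 0.551 on the other 14 arrays, and counts of called genes for the ratios are given with and without it. Signals were well above background for 68.1% to 75.5% of the probes on the Cy5 side and for 68.8% to 73.0% on the Cy3 side. Of the markers used to check the cell type, the epithelial genes KRT8, KRT18, KRT19 and CDH1 were well above background in both channels on all 15 arrays. The leukocyte gene PTPRC, the endothelial genes PECAM1 and CDH5 and the mesenchymal genes COL3A1 and PDGFRB were so on 0 arrays. CD3E, VWF and COL1A1 were above background at mean overexpressing signals of 34.6, 13.7 and 39.5, and EPCAM had no probe by that name.

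The mature miRNAs that the oligonucleotides raise or suppress are shown 5′ to 3′, for the 3 of the 5 that the RefSeq table (GRCh38.p14) holds under these names, since the seed (bases 2 to 8, in capitals) is the part that pairs with target mRNA. The label miR-629* is the older name of the 3p arm. No entry was found for miR-565 and miR-766.
miR-181d (miR-181d-5p): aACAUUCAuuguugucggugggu
miR-574-3p: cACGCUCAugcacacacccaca
miR-629* (miR-629-3p): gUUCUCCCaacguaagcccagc
These 3 seeds differ from one another.

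The antioxidant response element holds the core TGACNNNGC, and windows around it are shown because the genes were put together as NRF2 targets. RefSeq promoters (GRCh38.p14) of 300 bases, from 250 before to 50 after the start, were found for 27 of the 36 genes, with 35 promoters in all since some genes have several starts. They were not found for SLC7A11, GSR, PRDX1, HMOX1, FTH1, AKR1B10, ALDH3A1, ABCC1 and ABCC3. The core, searched on both strands, occurred in 11 of these 35 promoters (31.4%), which belong to 10 genes, and in 13.3% of all 35116 promoters of the table. The 10 genes were KEAP1, GCLM, GPX2, TXNRD1, PGD, ME1, EPHX1, CBR1, CYP4F11 and PIR. Shown are the windows of the 7 of these genes that were called in the mean over miRNAs, with the core in capitals and 10 bases on each side, read 5′ to 3′ on the strand of the core.
KEAP1, chr19:10502784-10502812, plus strand: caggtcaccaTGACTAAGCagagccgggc
KEAP1, chr19:10502807-10502835, minus strand: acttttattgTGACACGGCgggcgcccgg
TXNRD1, chr12:104215670-104215698, plus strand: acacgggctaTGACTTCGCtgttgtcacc
TXNRD1, chr12:104215761-104215789, minus strand: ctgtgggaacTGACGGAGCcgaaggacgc
TXNRD1, chr12:104286920-104286948, minus strand: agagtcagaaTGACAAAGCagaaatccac
PGD, chr1:10398853-10398881, minus strand: agcacctagaTGACATTGCcccggcgagg
ME1, chr6:83431022-83431050, plus strand: gctgctggggTGACGGTGCtgactgcagc
ME1, chr6:83431170-83431198, minus strand: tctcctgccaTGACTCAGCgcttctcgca
CBR1, chr21:36069855-36069883, minus strand: ccagctagccTGACTTTGCagaacccgca
CYP4F11, chr19:15935005-15935033, plus strand: cagctcagggTGACACAGCatgggcacag
PIR, chrX:15493289-15493317, plus strand: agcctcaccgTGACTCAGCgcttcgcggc
One core of ME1 and that of PIR also hold TGACTCA, the site of AP-1, which occurred in 4.95% of all promoters. These matches are a description of the letters in these windows and were not tested as binding sites.

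Gene levels were given by the processed signal of the brightest tested probe of each gene. All 35 genes were well above background in both channels on all 15 arrays. Ratios were computed as the log2 of the overexpressing signal over the antagomir signal, so that a positive value means a higher signal from the cells overexpressing the miRNA. Higher and lower refer to this signal, in which the dye and the oligonucleotide coincide, and not to mRNA by itself. Values for the 3 arrays of a miRNA are given in the order of replicates 1, 2 and 3 throughout. The ratios of the NRF2 target genes were small. Over the 35 genes, the median size of the mean log2 ratio was 0.11 with miR-181d, 0.085 with miR-565, 0.11 with miR-574-3p, 0.11 with miR-629* and 0.14 with miR-766. Over all tested genes the same median was 0.14, 0.21, 0.13, 0.16 and 0.12. The lowest mean was that of ALDH3A1 with miR-181d at -0.69, and the highest was that of NFE2L2 with miR-766 at 0.32. The methods call an mRNA suppressed at a ratio under 0.5, a p no higher than 0.001 and a knockdown signal of at least 20. With the unadjusted p of limma, no probe of these genes met these thresholds with any of the 5 miRNAs, and none met their mirror image, a ratio over 2, which is not part of the methods. Among all gene names, 2 to 56 met the former and 5 to 35 the latter, depending on the miRNA.

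**Figure D1:**
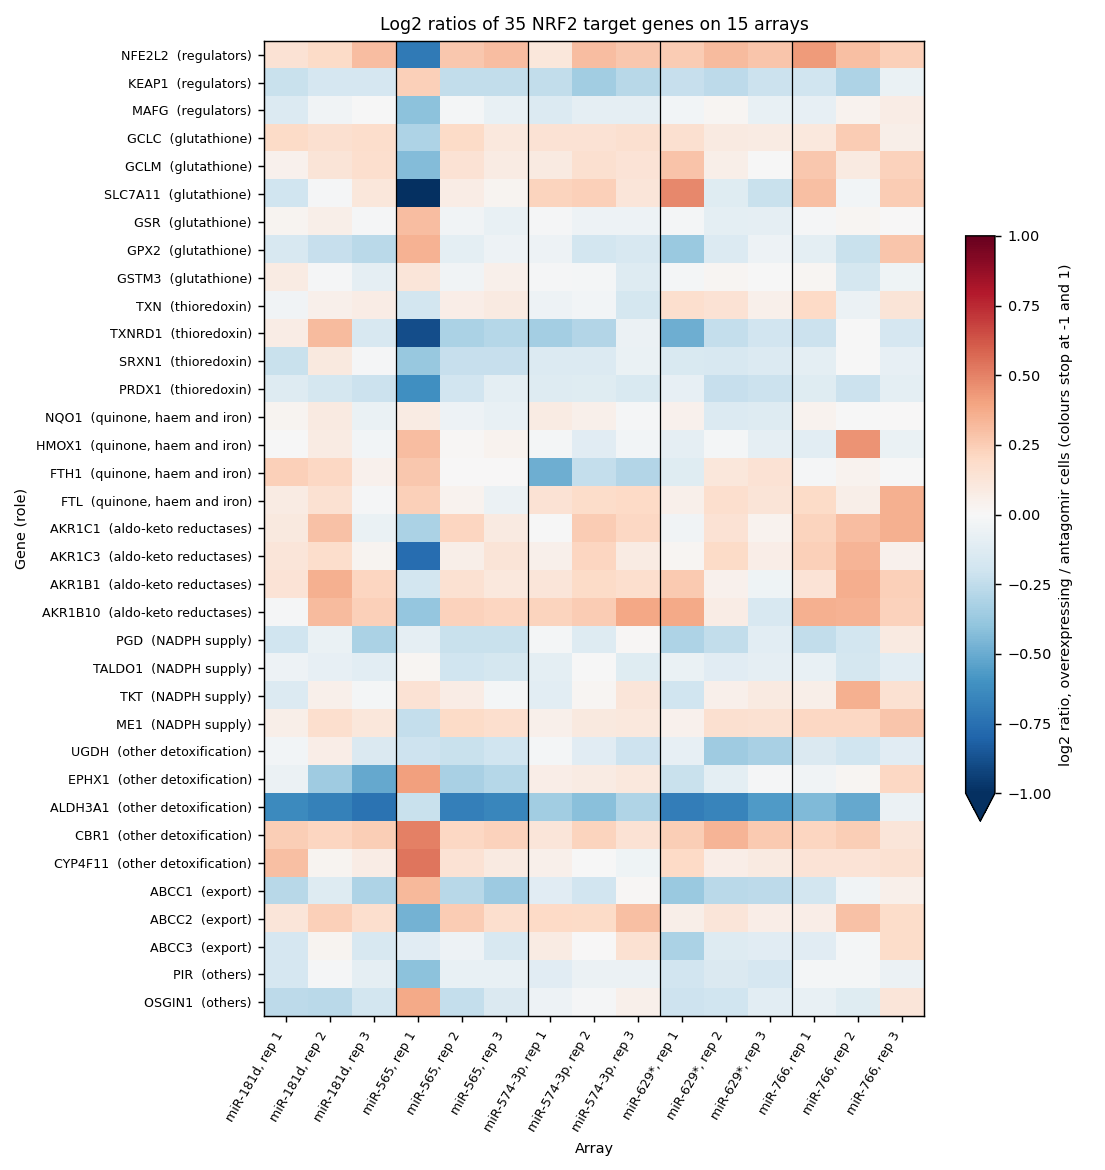
Log2 ratio (overexpressing over antagomir cells) of 35 NRF2 target genes, in rows with their role, on 15 arrays, in columns grouped by miRNA, with colors that stop at -1 and 1. ALDH3A1 is blue (lower) and CBR1 red (higher) in all columns, and the column of replicate 1 of miR-565 departs from the others, with SLC7A11 at -1.68.

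For each miRNA, the ratio was tested against 0 by limma with Benjamini-Hochberg adjustment over all tested probes, and a gene was called at an adjusted p under 0.05. With miR-181d, 1 gene was called higher, CBR1, and 1 lower, ALDH3A1, where 3.77% and 2.65% of all tested genes were called. With miR-565, 2 of the 35 genes were called higher (5.71%), namely CBR1 and CYP4F11, against 9.41% of all genes, and 6 were called lower (17.1%), namely TXNRD1, SRXN1, PRDX1, UGDH, ALDH3A1 and PIR, against 4.54%. With miR-574-3p, no gene was called higher, where 2.85% of all genes were, and KEAP1, FTH1 and ALDH3A1 were called lower (8.57%), against 2.67%. With miR-629*, CBR1 was called higher, where 6.06% of all genes were, and UGDH and ALDH3A1 lower (5.71%), against 4.37%. With miR-766, limma called 0 of the 35 genes at an adjusted p under 0.05, where 1.64% of all genes were called higher and 0.752% lower. At an unadjusted p under 0.05 there were 13 of the 35. The share of all genes at an unadjusted p was not computed, here or below, so that such counts cannot be set against all genes. Fitted on the 3 miR-766 arrays only, 2 genes were called (4.38% of all genes). These counts rest on the brightest probe of each gene. Among the other probes, limma also called GCLC higher with miR-181d (0.26), FTH1 higher with miR-565 (0.21), TXN and AKR1B10 higher with miR-574-3p (0.26 and 0.38), TXN higher with miR-629* (0.31), and TXN and AKR1B10 higher with miR-766 (0.29 and 0.43). AKR1C1 was called lower by another probe with miR-565 (-0.26), FTH1 with miR-574-3p (-0.36) and UGDH with miR-629* (-0.22).

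Replicate 1 of miR-565 enters the spread shared by all 5 miRNAs, and its removal moved these counts by over 1.5 times. Without it, 15 genes were called with miR-181d (28.1% of all genes), 13 with miR-565 (16.4%), 10 with miR-574-3p (23.1%), 17 with miR-629* (35.6%) and 16 with miR-766 (19.4%). The shares of the 35 genes were then 42.9%, 37.1%, 28.6%, 48.6% and 45.7%. ALDH3A1, CBR1, KEAP1, NFE2L2 and GCLC were called with each of the 5 miRNAs in this fit.

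The mean ratio over the 5 miRNAs was tested as well. Of the 35 genes, 10 were higher in the overexpressing cells (28.6%, against 23.1% of all genes) and 10 were lower (28.6%, against 18.5%). Without replicate 1 of miR-565, 12 were higher (34.3%, against 31.8%) and 14 lower (40.0%, against 25.9%). Both directions occurred among the NRF2 target genes in these fits, as they did among all genes. When each array was centered on the median of its tested probes, which shifted an array by up to 0.14 (replicate 1 of miR-565), 4 genes were called higher and 14 lower. In that fit, 42% of all genes were called in either direction. Their split by direction was not computed, so that the 4 and the 14 cannot be set against all genes. Of the 10 higher genes, NFE2L2, GCLC, AKR1C1, AKR1B10, ME1 and ABCC2 were not called after this centering, while MAFG, GPX2, ABCC3 and OSGIN1 were. After normexp correction and loess, 22 genes were called for the mean, beside 41.1% of all genes. Calls of NFE2L2, GCLC, PRDX1, TALDO1 and ABCC2 were lost there, and GPX2, TXN, FTH1, AKR1C3, TKT, ABCC3 and OSGIN1 were called in addition. With the mean of all probes of a gene, FTL, AKR1C1, TALDO1, CYP4F11 and ABCC2 were no longer called and MAFG and TXN were. MAFG was also called with the replicate number as a block. With the slide as a random block, 0 of the 35 genes and 0.339% of all genes were called for the mean by limma, with 4 at an unadjusted p under 0.05. The correlation within a slide was 0.73 in that fit and -0.20 without replicate 1 of miR-565, where 30 genes were called beside 74% of all genes. The mean over miRNAs and any difference between Cy5 and Cy3 cannot be told apart.

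**Figure D2:**
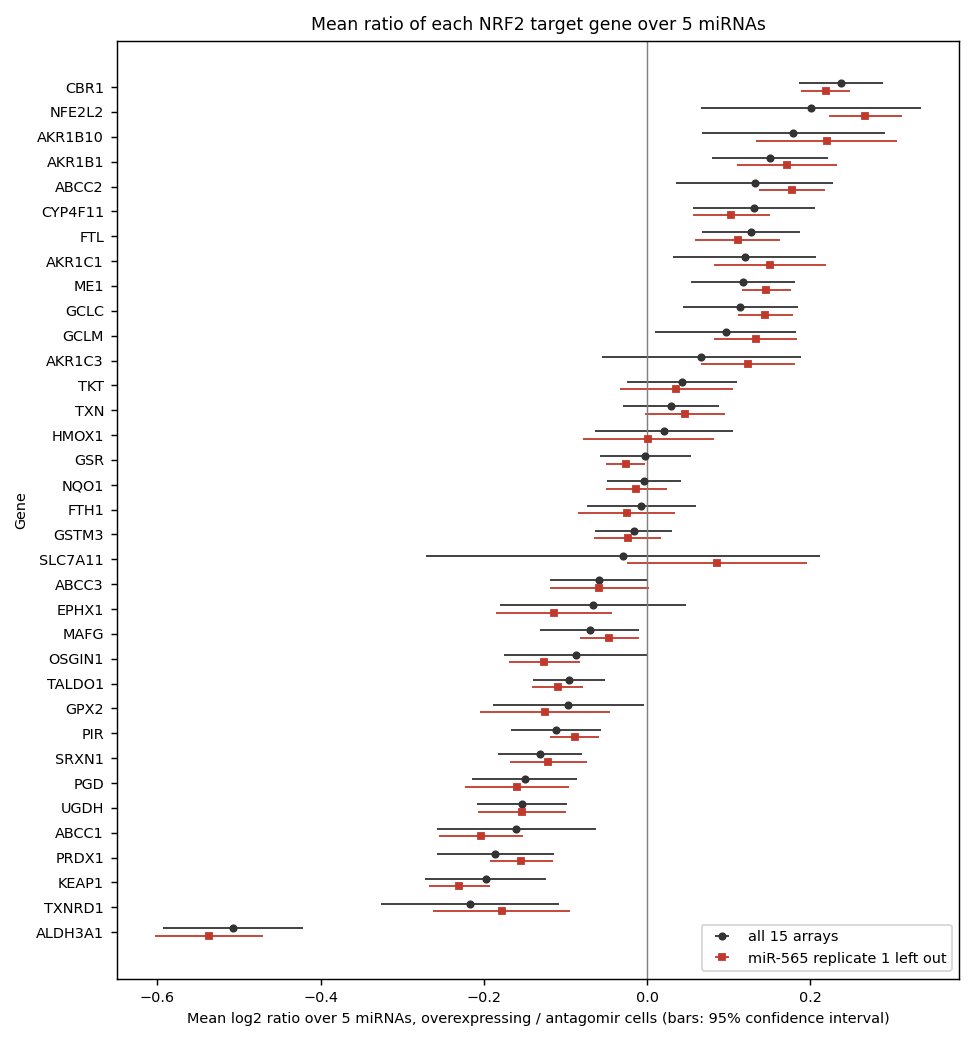
Mean log2 ratio over the 5 miRNAs for each of 35 NRF2 target genes (rows), with its 95% confidence interval, from all 15 arrays (circles) and without replicate 1 of miR-565 (squares). With all arrays ALDH3A1 lies lowest at -0.51 and CBR1 highest at 0.24, and without that array NFE2L2 lies highest at 0.27.

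Among the regulators, NFE2L2 was higher and KEAP1 lower in the overexpressing cells in the mean over miRNAs, and MAFG, a small MAF partner of NRF2, was not called. The log2 ratio of NFE2L2 was 0.14, 0.19 and 0.31 with miR-181d, -0.71, 0.27 and 0.31 with miR-565, 0.12, 0.31 and 0.27 with miR-574-3p, 0.25, 0.31 and 0.28 with miR-629* and 0.43, 0.30 and 0.23 with miR-766. It was above 0 on 14 of the 15 arrays, the exception being replicate 1 of miR-565, and its mean of 0.20 ± 0.062 (SE, adjusted p = 0.0214) became 0.27 ± 0.020 (SE, adjusted p = 5.46e-07) without that array. After normexp background correction and loess the mean was 0.16 and was not called (adjusted p = 0.0711), and nor was it after centering on the median. With miR-565 alone, the mean was -0.042 with that array and 0.29 without it. The other NFE2L2 probe gave a mean of -0.012 (adjusted p = 0.786), so that the probes of this gene disagreed. The log2 ratio of KEAP1 was -0.22, -0.17 and -0.17 with miR-181d, 0.24, -0.25 and -0.25 with miR-565, -0.25, -0.35 and -0.28 with miR-574-3p, -0.23, -0.26 and -0.21 with miR-629* and -0.20, -0.31 and -0.068 with miR-766. It was below 0 on 14 of the 15 arrays, again with replicate 1 of miR-565 as the exception. The mean of KEAP1 was -0.20 ± 0.034 (SE, adjusted p = 6.98e-04), and with miR-574-3p it was -0.29 ± 0.077 (SE, adjusted p = 0.0458). This last call was lost without any one of the 12 arrays of the miRNAs other than miR-565, with values from -0.31 to -0.26. MAFG ranged from -0.41 to 0.077, with a mean of -0.070 ± 0.028 (SE, adjusted p = 0.0605), or -0.046 ± 0.016 (SE, adjusted p = 0.0304) without replicate 1 of miR-565.

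Of the 6 genes of glutathione synthesis and use, GCLC was higher in the mean, and the brightest probes of the other 5 were not called. GCLC encodes the catalytic subunit of glutamate-cysteine ligase, the first step of glutathione synthesis. For GCLC the log2 ratio was 0.19, 0.16 and 0.18 with miR-181d, -0.31, 0.19 and 0.11 with miR-565, 0.14, 0.15 and 0.16 with miR-574-3p, 0.16, 0.087 and 0.082 with miR-629* and 0.11, 0.25 and 0.059 with miR-766. It was above 0 on 14 arrays, with a mean of 0.11 ± 0.032 (SE, adjusted p = 0.0136). This call was lost after normexp correction and loess (0.082), while the other GCLC probe was called at 0.12. GCLM, the modifier subunit of the same enzyme, ranged from -0.43 to 0.28, and its mean of 0.097 ± 0.040 (SE, adjusted p = 0.0702) was called without replicate 1 of miR-565 at 0.13 ± 0.023 (SE, adjusted p = 4.22e-04). The other GCLM probe was at -0.032 (adjusted p = 0.133), so that the probes of GCLM differed in sign. SLC7A11, the cystine transporter, had the widest range of all 35 genes. Its log2 ratio was -1.68, 0.073 and 0.025 on the miR-565 arrays and ran from -0.23 to 0.48 on the other 12, with values of both signs. The other two SLC7A11 probes had means of -0.15 and 0.043, and none of the 3 was called in the mean. The glutathione reductase GSR ranged from -0.099 to 0.31, the glutathione peroxidase GPX2 from -0.37 to 0.35 and the glutathione transferase GSTM3 from -0.17 to 0.12. The other GSR probe was called lower, with a mean of -0.16 ± 0.053 (SE, adjusted p = 0.031), while the brightest was at -0.0022. GPX2 was called lower without replicate 1 of miR-565, at -0.12 ± 0.037 (SE, adjusted p = 0.0117).

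Of the 4 genes of the thioredoxin system, TXNRD1, SRXN1 and PRDX1 were lower in the mean over miRNAs, while the brightest probe of TXN, thioredoxin itself, was not called at 0.029 ± 0.027 (SE, adjusted p = 0.418). The log2 ratio of that TXN probe was -0.037, 0.047 and 0.075 with miR-181d, -0.19, 0.064 and 0.093 with miR-565, -0.051, -0.025 and -0.17 with miR-574-3p, 0.17, 0.14 and 0.051 with miR-629* and 0.20, -0.057 and 0.13 with miR-766, with values on both sides of 0. The other TXN probe was called higher, with a mean of 0.24 ± 0.028 (SE, adjusted p = 4.16e-05) and calls at 0.31 with miR-629*, 0.29 with miR-766 and 0.26 with miR-574-3p, so that the probes of TXN disagreed. The mean of both probes was called, as was the brightest probe after normexp correction and loess. TXNRD1 encodes the reductase that recharges thioredoxin with electrons from NADPH. TXNRD1 had log2 ratios of 0.072, 0.31 and -0.16 with miR-181d, -0.89, -0.32 and -0.29 with miR-565, -0.34, -0.29 and -0.062 with miR-574-3p, -0.49, -0.24 and -0.19 with miR-629* and -0.21, -0.0046 and -0.17 with miR-766. It was below 0 on 13 of the 15 arrays, with a mean of -0.22 ± 0.050 (SE, adjusted p = 0.00449). With miR-565 the mean was -0.50 ± 0.11 (SE, adjusted p = 0.0182), which became -0.30 ± 0.10 (SE, adjusted p = 0.0618) without replicate 1. SRXN1, sulfiredoxin, repairs overoxidized peroxiredoxins. The values of SRXN1 were -0.23, 0.096 and -0.013 with miR-181d, -0.38, -0.23 and -0.23 with miR-565, -0.14, -0.13 and -0.068 with miR-574-3p, -0.15, -0.16 and -0.14 with miR-629* and -0.099, -0.0036 and -0.083 with miR-766. SRXN1 was below 0 on 14 arrays and had a mean of -0.13 ± 0.024 (SE, adjusted p = 9.93e-04), and of -0.28 ± 0.054 (SE, adjusted p = 0.00881) with miR-565. PRDX1, a peroxiredoxin that removes hydrogen peroxide, had log2 ratios of -0.13, -0.17 and -0.21 with miR-181d, -0.61, -0.19 and -0.096 with miR-565, -0.13, -0.12 and -0.15 with miR-574-3p, -0.084, -0.23 and -0.22 with miR-629* and -0.12, -0.22 and -0.095 with miR-766. All 15 values were below 0, and the mean was -0.19 ± 0.033 (SE, adjusted p = 8.47e-04). With miR-565 it was -0.30 ± 0.074 (SE, adjusted p = 0.0249), and without replicate 1 it was -0.14 ± 0.046 (SE, adjusted p = 0.055). After normexp correction and loess the mean of PRDX1 over the miRNAs was -0.023 and was not called.

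**Figure D3:**
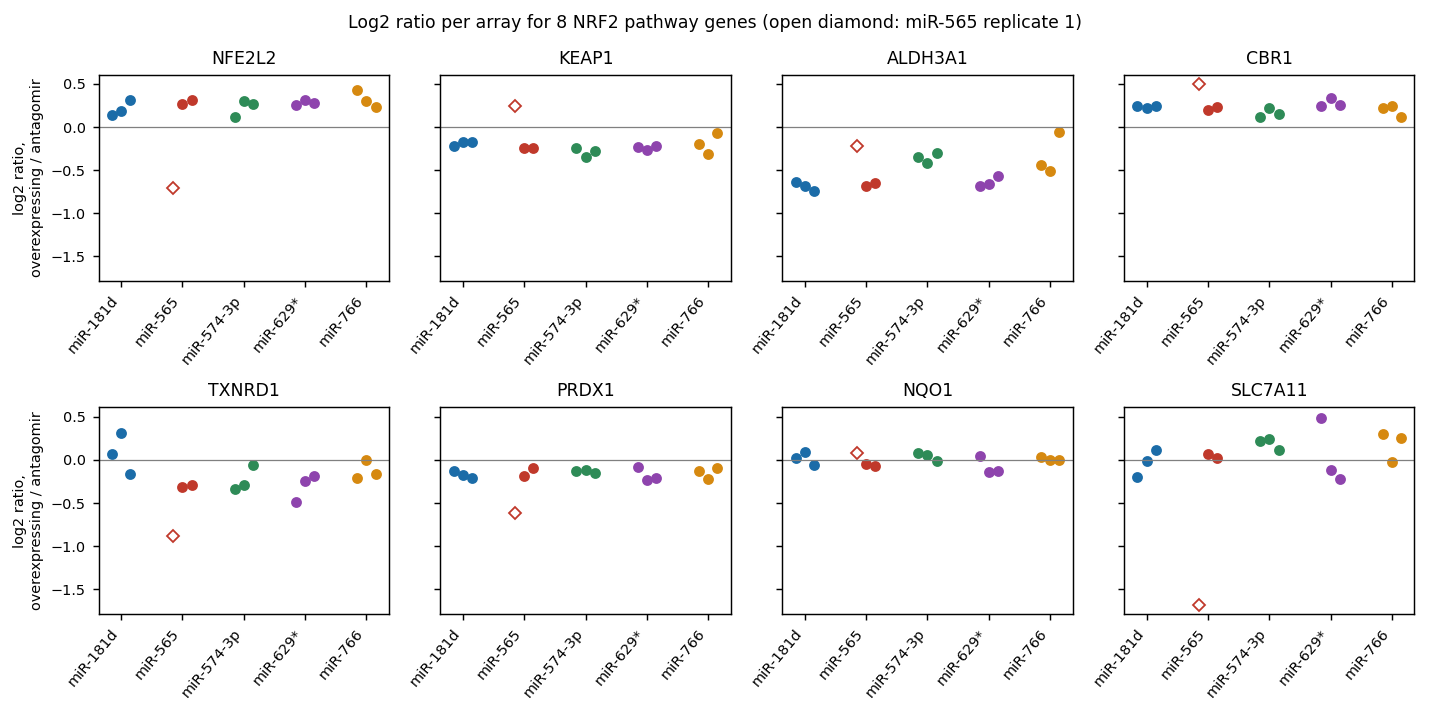
Log2 ratio (overexpressing over antagomir cells) on each array for 8 genes, with 3 points per miRNA and replicate 1 of miR-565 as an open diamond. ALDH3A1 and PRDX1 are below 0 and CBR1 above 0 on all 15 arrays, NQO1 lies near 0, and the diamond departs from the other points for NFE2L2, KEAP1, CBR1, TXNRD1, PRDX1 and SLC7A11.

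NQO1, the quinone reductase that serves as the usual readout of NRF2 activity, was not called. The log2 ratios of NQO1 were 0.024, 0.086 and -0.063 with miR-181d, 0.080, -0.050 and -0.074 with miR-565, 0.083, 0.054 and -0.0096 with miR-574-3p, 0.042, -0.14 and -0.13 with miR-629* and 0.037, -0.00043 and 0.0026 with miR-766. The values lay on both sides of 0, and the mean over miRNAs was -0.0039, with a 95% confidence interval of -0.050 to 0.042 and an adjusted p of 0.899 (limma). HMOX1, the heme oxygenase that frees iron from heme, ranged from -0.12 to 0.45 and had a mean of 0.021 ± 0.039 (SE, adjusted p = 0.699). The iron released by HMOX1 is stored by ferritin, whose light chain is FTL and heavy chain FTH1. The log2 ratio of FTL was 0.079, 0.15 and -0.015 with miR-181d, 0.24, 0.037 and -0.056 with miR-565, 0.14, 0.19 and 0.20 with miR-574-3p, 0.050, 0.16 and 0.13 with miR-629* and 0.19, 0.062 and 0.36 with miR-766. It was above 0 on 13 arrays, with a mean of 0.13 ± 0.028 (SE, adjusted p = 0.00303). Of the 3 FTL probes, the other two had means of -0.026 and 0.020 that were not called, and after normexp correction and loess the mean of FTL was 0.29.

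The aldo-keto reductases reduce carbonyls and are among the most strongly NRF2-dependent genes of human lung cancer lines. Of the 4 with a probe, AKR1C1, AKR1B1 and AKR1B10 were higher in the mean over miRNAs, and AKR1C3 was not called, except without replicate 1 of miR-565 or after normexp correction and loess. For AKR1B1, aldose reductase, the log2 ratio was 0.14, 0.35 and 0.22 with miR-181d, -0.18, 0.15 and 0.10 with miR-565, 0.12, 0.19 and 0.17 with miR-574-3p, 0.26, 0.042 and -0.047 with miR-629* and 0.14, 0.36 and 0.24 with miR-766. It was above 0 on 13 arrays, and the mean was 0.15 ± 0.033 (SE, adjusted p = 0.00296). For AKR1B10, which reduces retinal and other aldehydes, the values were -0.013, 0.32 and 0.24 with miR-181d, -0.39, 0.23 and 0.22 with miR-565, 0.23, 0.25 and 0.39 with miR-574-3p, 0.38, 0.076 and -0.16 with miR-629* and 0.35, 0.35 and 0.23 with miR-766. The mean was 0.18 ± 0.052 (SE, adjusted p = 0.0148), with 12 arrays above 0. The other AKR1B10 probe was called higher in the mean at 0.22 (adjusted p = 0.00136), with miR-574-3p at 0.38 (adjusted p = 0.0362) and with miR-766 at 0.43 (adjusted p = 0.037), where the brightest was not called. AKR1C1, a hydroxysteroid dehydrogenase, gave 0.097, 0.29 and -0.064 with miR-181d, -0.31, 0.22 and 0.089 with miR-565, -0.0064, 0.25 and 0.21 with miR-574-3p, -0.032, 0.15 and 0.032 with miR-629* and 0.22, 0.31 and 0.35 with miR-766. Its mean was 0.12 ± 0.041 (SE, adjusted p = 0.0316), a call that was lost without replicate 1 or 2 of miR-181d, or replicate 2 or 3 of any of the other 4 miRNAs, with values from 0.098 to 0.12, and also with no intensity trend. After normexp correction and loess the means of AKR1B1, AKR1B10 and AKR1C1 were larger by over 1.5 times, at 0.39, 0.39 and 0.31. AKR1C1 shares nearly all of its sequence with AKR1C2, so that its probes may read both. The 4 probes named AKR1C1 disagreed, with means of 0.12 and -0.14 that were both called and of -0.037 and -0.016 that were not, and the mean of all 4 was -0.018. AKR1C3, which makes active androgens and prostaglandins, ranged from -0.77 to 0.34, and only replicate 1 of miR-565 was below 0. Its mean was 0.067 ± 0.056 (SE, adjusted p = 0.368) with that array and 0.12 ± 0.027 (SE, adjusted p = 0.00183) without it.

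Genes of NADPH supply moved in both directions. PGD and TALDO1 of the pentose phosphate pathway were lower, ME1, the cytosolic malic enzyme, was higher, and TKT, transketolase, which ranged from -0.20 to 0.35, was not called at 0.043 ± 0.031 (SE, adjusted p = 0.289). PGD had log2 ratios of -0.20, -0.070 and -0.32 with miR-181d, -0.086, -0.23 and -0.22 with miR-565, -0.016, -0.13 and 0.014 with miR-574-3p, -0.31, -0.25 and -0.11 with miR-629* and -0.25, -0.18 and 0.087 with miR-766. Its mean was -0.15 ± 0.030 (SE, adjusted p = 0.00172), with 13 arrays below 0. TALDO1, transaldolase, had log2 ratios of -0.051, -0.079 and -0.10 with miR-181d, 0.019, -0.20 and -0.17 with miR-565, -0.10, -0.0076 and -0.12 with miR-574-3p, -0.067, -0.11 and -0.092 with miR-629* and -0.072, -0.17 and -0.10 with miR-766. Its mean was -0.096 ± 0.020 (SE, adjusted p = 0.00258), with 14 arrays below 0, though the mean of its 4 probes (-0.046) was not called, nor was its brightest probe after normexp correction and loess (-0.0030). ME1 had log2 ratios of 0.056, 0.16 and 0.11 with miR-181d, -0.24, 0.19 and 0.17 with miR-565, 0.053, 0.096 and 0.11 with miR-574-3p, 0.045, 0.16 and 0.16 with miR-629* and 0.21, 0.21 and 0.28 with miR-766. Its mean was 0.12 ± 0.030 (SE, adjusted p = 0.00732), and replicate 1 of miR-565 was the 1 array below 0. The other two ME1 probes were not called, at 0.020 (adjusted p = 0.627) and 0.10 (adjusted p = 0.0629).

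Of the 5 remaining detoxification enzymes, ALDH3A1 and UGDH were lower, CBR1 and CYP4F11 were higher, and EPHX1 was not called. ALDH3A1 is an aldehyde dehydrogenase that clears products of lipid peroxidation. Its mean processed signal over the 15 arrays was 5307 in the overexpressing cells and 7486 in the antagomir cells. The log2 ratio was -0.64, -0.68 and -0.74 with miR-181d, -0.22, -0.69 and -0.65 with miR-565, -0.35, -0.42 and -0.30 with miR-574-3p, -0.69, -0.66 and -0.56 with miR-629* and -0.44, -0.51 and -0.060 with miR-766. All 15 values were below 0, the smallest in size being that of replicate 3 of miR-766. The mean was -0.51 ± 0.040 (SE, adjusted p = 2.00e-06), a ratio of 0.704. By miRNA it was -0.69 ± 0.089 (SE, adjusted p = 0.00185) with miR-181d, -0.52 ± 0.089 (SE, adjusted p = 0.0052) with miR-565, -0.35 ± 0.089 (SE, adjusted p = 0.0355) with miR-574-3p and -0.64 ± 0.089 (SE, adjusted p = 0.00207) with miR-629*. With miR-766 it was -0.34 ± 0.089 (SE, adjusted p = 0.069). The miR-574-3p call was lost without any of its 3 arrays, or without replicate 2 or 3 of miR-181d or of miR-629*, with values from -0.38 to -0.32.

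CBR1, a carbonyl reductase that acts on quinones and prostaglandins, moved the other way. Its mean signal was 3697 in the overexpressing cells and 3122 in the antagomir cells, and its log2 ratio was 0.25, 0.22 and 0.25 with miR-181d, 0.50, 0.20 and 0.23 with miR-565, 0.12, 0.22 and 0.15 with miR-574-3p, 0.25, 0.34 and 0.26 with miR-629* and 0.22, 0.25 and 0.12 with miR-766. All 15 values were above 0, and the mean was 0.24 ± 0.024 (SE, adjusted p = 1.10e-05), a ratio of 1.18. It was called with miR-181d at 0.24 ± 0.053 (SE, adjusted p = 0.0212), with miR-565 at 0.31 ± 0.053 (SE, adjusted p = 0.0052) and with miR-629* at 0.28 ± 0.053 (SE, adjusted p = 0.00847). Replicate 1 of miR-565, at 0.50, lay above the other 14 arrays (0.12 to 0.34), and the miR-565 call was kept without it. The miR-181d call was lost without any of its 3 arrays (0.23 to 0.25), and the miR-629* call without its replicate 2 or 3 (0.25 and 0.29). UGDH makes UDP-glucuronate, the donor of glucuronidation. UGDH had log2 ratios of -0.026, 0.068 and -0.14 with miR-181d, -0.21, -0.22 and -0.20 with miR-565, -0.021, -0.11 and -0.21 with miR-574-3p, -0.079, -0.36 and -0.33 with miR-629* and -0.15, -0.20 and -0.11 with miR-766. UGDH was below 0 on 14 arrays with a mean of -0.15 ± 0.025 (SE, adjusted p = 5.18e-04), and was called with miR-565 at -0.21 ± 0.057 (SE, adjusted p = 0.034) and with miR-629* at -0.25 ± 0.057 (SE, adjusted p = 0.0168). The former call was lost without replicate 2 or 3 of miR-565 or replicate 2 of miR-574-3p (-0.22 to -0.20), and the latter without replicate 2 or 3 of miR-629* (-0.20 and -0.22). CYP4F11, a fatty acid hydroxylase, had log2 ratios of 0.30, 0.030 and 0.075 with miR-181d, 0.53, 0.15 and 0.086 with miR-565, 0.049, -0.0035 and -0.041 with miR-574-3p, 0.20, 0.065 and 0.092 with miR-629* and 0.14, 0.14 and 0.16 with miR-766. Its mean was 0.13 ± 0.035 (SE, adjusted p = 0.00939), while the other CYP4F11 probe was at -0.012 (adjusted p = 0.885), and the mean of both probes was 0.059 and not called. The call with miR-565, at 0.26 ± 0.077 (SE, adjusted p = 0.0474), became 0.12 ± 0.057 (SE, adjusted p = 0.188) without replicate 1 and was also lost without replicate 2 or 3 of miR-181d or any array of miR-574-3p, miR-629* or miR-766. EPHX1, the microsomal epoxide hydrolase, ranged from -0.51 to 0.41. Its log2 ratio was -0.058, -0.36 and -0.51 with miR-181d, 0.41, -0.32 and -0.28 with miR-565, 0.063, 0.081 and 0.10 with miR-574-3p, -0.22, -0.095 and -0.0089 with miR-629* and -0.032, 0.023 and 0.21 with miR-766, with all values above 0 for miR-574-3p and all below 0 for miR-181d. The mean of EPHX1 was -0.066 ± 0.053 (SE, adjusted p = 0.335), or -0.11 ± 0.032 (SE, adjusted p = 0.01) without replicate 1 of miR-565.

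Of the 3 export pumps, ABCC2 was higher, ABCC1 lower and ABCC3, which ranged from -0.31 to 0.19, not called at -0.059 ± 0.028 (SE, adjusted p = 0.103) (ABCC3 and OSGIN1 were called after median centering and after normexp correction and loess). These pumps carry glutathione and glucuronide conjugates out of the cell. ABCC1 had log2 ratios of -0.28, -0.13 and -0.31 with miR-181d, 0.33, -0.28 and -0.36 with miR-565, -0.11, -0.19 and 0.0098 with miR-574-3p, -0.37, -0.27 and -0.26 with miR-629* and -0.18, -0.037 and 0.053 with miR-766. Its mean was -0.16 ± 0.045 (SE, adjusted p = 0.0135), with 12 arrays below 0. ABCC2 had log2 ratios of 0.12, 0.24 and 0.17 with miR-181d, -0.47, 0.25 and 0.17 with miR-565, 0.20, 0.19 and 0.30 with miR-574-3p, 0.061, 0.12 and 0.069 with miR-629* and 0.070, 0.29 and 0.19 with miR-766, and its mean was 0.13 ± 0.045 (SE, adjusted p = 0.0313). This call was lost without replicate 2 of miR-181d, replicate 3 of miR-574-3p, or replicate 2 or 3 of miR-565, miR-629* or miR-766 (0.11 to 0.13), with no intensity trend and after normexp correction and loess (0.097), and the other ABCC2 probe gave -0.11 and was not called. PIR, an iron-binding nuclear protein, had log2 ratios of -0.17, -0.012 and -0.087 with miR-181d, -0.41, -0.077 and -0.072 with miR-565, -0.12, -0.057 and -0.056 with miR-574-3p, -0.19, -0.14 and -0.17 with miR-629* and -0.023, -0.019 and -0.057 with miR-766. All 15 values of PIR were below 0, with a mean of -0.11 ± 0.026 (SE, adjusted p = 0.00419). The call of PIR with miR-565, at -0.19 ± 0.057 (SE, adjusted p = 0.0483), became -0.074 ± 0.036 (SE, adjusted p = 0.185) without replicate 1 and was also lost without any one of the 12 arrays of the other miRNAs. OSGIN1, which is induced by oxidants and restrains growth, ranged from -0.27 to 0.38 with a mean of -0.088 ± 0.041 (SE, adjusted p = 0.101), which became -0.13 ± 0.020 (SE, adjusted p = 1.99e-04) without replicate 1 of miR-565.

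Whether the miRNAs differed from one another was tested by a moderated F test over the 5 ratios, which a bias of the dyes shared by the arrays does not enter. At an adjusted p under 0.05, limma found 0 of the 35 genes, where 0.552% of all genes passed, and 3 had an unadjusted p under 0.05. Without replicate 1 of miR-565, FTH1 passed (adjusted p = 0.029), where 3.82% of all genes did, and the next genes were ALDH3A1 (0.0785) and EPHX1 (0.0818). In the contrast of one miRNA with the mean of the other four, FTH1 was called with miR-574-3p, where 1.27% of all genes were called, or 5.71% without replicate 1 of miR-565. The same contrast gave 0 of the 35 genes with miR-181d (5 at an unadjusted p under 0.05), 0 with miR-565 (4), 0 with miR-629* (1) and 0 with miR-766 (1), while it called 0%, 0.113%, 0.0521% and 0.00869% of all genes. Without replicate 1 of miR-565 these 4 counts were also 0, beside 0.487%, 0.213%, 0.274% and 0.13% of all genes. At an unadjusted p under 0.05 there were then 7, 5, 4 and 7 of the 35. With the slide as a random block, 11 genes were called with miR-181d against the others, namely NFE2L2, GCLC, SLC7A11, TXNRD1, AKR1C3, EPHX1, ALDH3A1, ABCC1, ABCC2, PIR and OSGIN1, beside 31.5% of all genes. In that fit, miR-181d is corrected by the 1 miR-565 array of its slide, and without this array the count was 7 (14.7% of all genes). A p above the threshold does not show that the miRNAs acted alike. The SE of a contrast with miR-181d ran from 0.051 to 0.28 on the log2 scale over the 35 genes.

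FTH1 was lower with miR-574-3p by its brightest probe. Its log2 ratio was 0.24, 0.21 and 0.043 with miR-181d, 0.27, 0.0070 and 0.0032 with miR-565, -0.49, -0.24 and -0.29 with miR-574-3p, -0.12, 0.11 and 0.14 with miR-629* and -0.015, 0.032 and -0.0036 with miR-766. The 3 miR-574-3p values lie below all 12 others. The mean with miR-574-3p was -0.34 ± 0.069 (SE, adjusted p = 0.0131), a ratio of 0.791. This call was lost without any of the 3 miR-574-3p arrays (-0.39 to -0.27), after normexp correction and loess (-0.13) and with the slide as a random block (-0.27). Set against the mean of the other four, the miR-574-3p value of FTH1 differed by -0.41 ± 0.077 (SE, adjusted p = 0.0184), with a 95% confidence interval of -0.58 to -0.25. Replicates 1 and 2 of miR-574-3p differed by -0.37 from the 2 miR-565 arrays of slide 2, and replicate 3 differed by -0.34 from the 3 miR-629* arrays of slide 3. Without replicate 1 of miR-574-3p it was -0.34 (adjusted p = 0.198), and without replicate 2 or 3 it was -0.47 and -0.44, and it was not called in any of these fits. The call was also lost when the slide was a random block (adjusted p = 0.118), when the spread had no trend with intensity, and for the mean of all FTH1 probes (-0.23). The adjusted p ran from 0.00207 to 0.198 over all alternatives.

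The 5 FTH1 probes did not agree. The array annotation places the brightest probe and one that overlaps it by 51 bases on chromosome 11, at chr11:61488852-61488911 and chr11:61488861-61488920 (NCBI36). They differ at 4 of those 51 bases, so that at most one of them can match this stretch of the genome at every base. Whether either does was not tested. Their sequences are shown because the finding rests on them, with the bases that differ in capitals.
FTH1, brightest probe: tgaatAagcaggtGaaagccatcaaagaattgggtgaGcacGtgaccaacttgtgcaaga
FTH1, overlapping probe: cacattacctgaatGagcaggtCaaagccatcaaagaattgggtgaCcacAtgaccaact
The overlapping probe gave log2 ratios of -0.40, -0.37 and -0.31 with miR-574-3p and a difference from the other miRNAs of -0.44 ± 0.055 (SE, limma adjusted p = 0.00132). The difference was -0.22 ± 0.051 (SE, limma adjusted p = 0.0622) for another probe and -0.11 and 0.028 for the remaining probes, and these were not called. In the mean over miRNAs, one of these probes was called higher at 0.068 and another lower at -0.15. Ferritin heavy chain has many processed copies in the genome, so that a probe may read RNA of a near-identical copy, and the files do not tell which.

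**Figure D4:**
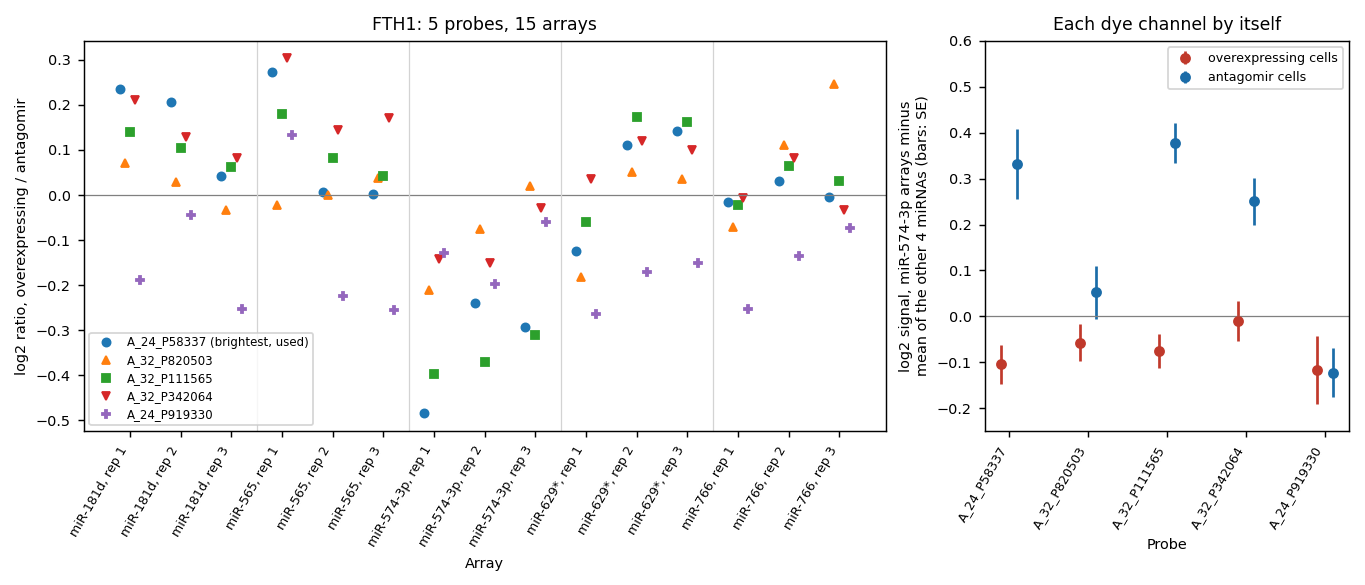
Left, log2 ratio (overexpressing over antagomir cells) of 5 FTH1 probes on 15 arrays. Right, difference in log2 signal between the miR-574-3p arrays and those of the other 4 miRNAs, with its SE, for each probe and each dye channel, where the antagomir channel of the brightest probe is at 0.33 and its overexpressing channel at -0.10.

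The 2 dyes were then taken one at a time, so that the cells with one oligonucleotide were set against the cells on arrays of the other miRNAs that carried the same label, after quantile normalization within the dye. FTH1 was higher in the cells with the miR-574-3p antagomir, by 0.33 ± 0.077 (SE, adjusted p = 0.0176). In the cells overexpressing miR-574-3p the difference was -0.10 ± 0.042 (SE, adjusted p = 0.982), with a 95% confidence interval of -0.20 to -0.012. The mean FTH1 signal was 139856 in the miR-574-3p antagomir cells, and 105656 to 119677 in the antagomir cells of the other miRNAs. In the overexpressing cells it was 110655 with miR-574-3p and 108253 to 129340 with the others. The overlapping probe was also higher in the antagomir cells, by 0.38 ± 0.043 (adjusted p = 1.48e-04). Of the remaining 3 FTH1 probes, one was higher there by 0.25 ± 0.051 (SE, adjusted p = 0.00899), and 2 were not called, at 0.052 (adjusted p = 0.664) and -0.12 (adjusted p = 0.22).

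In the antagomir channel of miR-574-3p, 4 of the 35 genes were called (11.4%, against 8.65% of all genes), namely FTH1, TXN at 0.18 ± 0.045 (SE, adjusted p = 0.0296), CYP4F11 at 0.23 ± 0.035 (SE, adjusted p = 0.00157) and EPHX1 at -0.26 ± 0.048 (SE, adjusted p = 0.00446). In the antagomir channel of miR-565, EPHX1 was higher by 0.22 ± 0.048 (SE, adjusted p = 0.0402), where 2.03% of all genes were called. The antagomir channels of miR-181d, miR-629* and miR-766 had 0 called genes among the 35 by limma, beside 1.33%, 0.869% and 3.72% of all genes. At an unadjusted p under 0.05 they had 7, 6 and 7 of the 35. The overexpressing channels had 0 called genes with all 5 miRNAs, with 1 to 5 of the 35 at an unadjusted p under 0.05. Of all genes, 0.295% were called there with miR-766 and 0% with the other four. The calls of TXN and of EPHX1 with miR-565 were lost without any array of their own miRNA, and that of FTH1 without replicate 1 or 3 of miR-574-3p, with values of 0.24 and 0.36. Arrays of other miRNAs also decided the call of TXN (replicate 2 of miR-629*) and of EPHX1 with miR-565 (6 arrays). Without replicate 1 of miR-565, 4 channel differences were called in all in place of 5, and the share of all genes was not computed for that fit. None of these 5 channel differences was called without quantile normalization, and the FTH1 difference was then 0.35 (adjusted p = 0.946). Over the 15 arrays, the median SD of the normalized log2 signal was 0.091 for the 35 genes in the overexpressing cells and 0.10 in the antagomir cells, and 0.21 and 0.13 for all tested genes.

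Of 45 further genes of the same pathway, 44 were tested. TRIM16L had no probe by that name. Between 1 and 3 of them were called with each miRNA. These were 2 with miR-181d (4.55%, against 6.42% of all genes), 3 with miR-565 (6.82%, against 14%), 2 with miR-574-3p (4.55%, against 5.51%), 2 with miR-629* (4.55%, against 10.4%) and 1 with miR-766 (2.27%, against 2.39%). In the mean over miRNAs 3 were higher (6.82%, against 23.1% of all genes) and 9 lower (20.5%, against 18.5%). Without replicate 1 of miR-565, 5 to 14 were called with each miRNA (11.4% to 31.8%, against 16.4% to 35.6% of all genes), and in the mean 11 were higher (25%, against 31.8%) and 13 lower (29.5%, against 25.9%). In that fit, BACH1, GLRX and TXNRD2 were called with every miRNA. On all 15 arrays, MAFK, another small MAF partner of NRF2, was the one called most often. It was lower with miR-181d at -0.27 ± 0.068 (SE, adjusted p = 0.0349), with miR-629* at -0.35 ± 0.068 (SE, adjusted p = 0.00929) and with miR-766 at -0.34 ± 0.068 (SE, adjusted p = 0.0225). GSTP1, a glutathione transferase, was higher with miR-181d at 0.19 ± 0.041 (SE, adjusted p = 0.0161) and with miR-565 at 0.19 ± 0.041 (SE, adjusted p = 0.0145). MGST1, a microsomal glutathione transferase, was lower with miR-565 at -0.22 ± 0.056 (SE, adjusted p = 0.0291) and higher with miR-574-3p at 0.23 ± 0.056 (SE, adjusted p = 0.0302). The MGST1 call with miR-565 was lost without replicate 1 of that miRNA. SQSTM1, which binds KEAP1 and delivers it to autophagy, was lower with miR-565 at -0.17 ± 0.050 (SE, adjusted p = 0.0436). TXNIP, an inhibitor of thioredoxin, was higher with miR-629* at 0.48 ± 0.13 (SE, adjusted p = 0.0348). BLVRB, a biliverdin reductase, was lower with miR-574-3p at -0.30 ± 0.057 (SE, adjusted p = 0.00851) and, against the other miRNAs, at -0.31 ± 0.064 (SE, adjusted p = 0.0322). In the mean over miRNAs, MAFK, SQSTM1, GPX4, TXNRD2, TXN2, ABCC4, RPE, ALDH3A2 and FECH were lower, from -0.43 for TXNRD2 to -0.064 for FECH, and GLRX, TXNIP and GSTP1 were higher, from 0.14 to 0.17. By the moderated F test, RBX1, MGST1 and BLVRB were called as differing between miRNAs without replicate 1 of miR-565 (6.82%, against 3.82% of all genes), but not on all 15 arrays.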

How the data were processed

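RNA of A549 cells was hybridized by the authors to dual-dye oligonucleotide arrays, 3 for each of 5 miRNAs. The labels do not say whether the 3 arrays of a miRNA were separate transfections. Arrays were read with Agilent Feature Extraction 9.5.3 (9.5.3.1 per the file headers), which subtracts background and normalizes the dyes, and probe positions are on NCBI36. Deposited processed and mean signals are intensity values on a linear scale. The log10 ratio of Cy5 over Cy3, deposited in the array files and in the series table, was used as an alternative. Deposited spot flags (a score of 0 or 1 for well above background, outlier and saturated) were used as filters.

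From these, the log2 ratio of processed signals was computed. Control spots (1639 per array) and outlier spots (2296 over all arrays) were left out, and no spot was saturated. Spots of a probe were averaged. Of 41000 probes, 31365 covering 23024 gene names were tested, namely those that either dye showed well above background on 3 or more arrays. The brightest tested probe stood for its gene. All 15 arrays entered one limma 3.58.1 fit (R 4.3.3) with a coefficient per miRNA and an intensity trend, and p values were adjusted by Benjamini-Hochberg over all tested probes, with a threshold of 0.05. A contrast of one miRNA with the mean of the others and a moderated F test compared miRNAs. Each channel was fitted separately after quantile normalization within its dye. The fits were also run on simulated data, of which no result is given here. The alternatives were the series table, error weights, no trend, centering on the median, normexp (offset 50) followed by loess, the 3 arrays of a miRNA only, the replicate number or the slide as a block, other filters on dim probes, the mean of all probes of a gene, outlier spots kept, and leaving out each array.

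The gene names and the lists were chosen with earlier results of these data known. Every gene was to be accounted for, with values per array for those called for a ratio and for NFE2L2, KEAP1 and NQO1, and a range for the others. Values per array of TXN and EPHX1 were added for their channel calls. One marker of another cell type is not reported here. The number of arrays limits the precision.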

Additional observations from a re-analysis of the deposited data

Results flagged for a closer look

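By its brightest probe, the log2 ratio of FTH1, ferritin heavy chain, was lower with miR-574-3p than with the other miRNAs. Of the 5 FTH1 probes, only this one and the one that overlaps it were called in this contrast. Which copy of ferritin heavy chain they read is not known. It differed by -0.41 ± 0.077 (SE, limma adjusted p = 0.0184) from the mean of the other 4 miRNAs. It was below 0 on 3 of 3 miR-574-3p arrays and below 0 on 3 of the other 12. The difference was tested by a contrast between the miRNAs, which a dye bias shared by the arrays does not enter. The call was lost without any one of the 3 miR-574-3p arrays, with the slide as a random block, with no intensity trend and for the mean of all FTH1 probes. By the moderated F test over all 5 miRNAs FTH1 was not called (limma adjusted p = 0.165).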

How the results depend on the processing

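Counts of called genes among the 35 moved with the processing. All 15 arrays gave 2 for miR-181d, 8 for miR-565, 3 for miR-574-3p, 3 for miR-629* and 0 for miR-766, in the order kept below, beside 6.42%, 14%, 5.51%, 10.4% and 2.39% of all genes. Parentheses after the counts below hold the share of all genes. After normexp and loess, miR-181d had 6 (8.76%), miR-574-3p 6 (6.8%), miR-629* 9 (13.8%) and miR-766 8 (3.12%). After median centering, miR-629* had 7 (12%) and miR-766 had 2 (3.18%). With no intensity trend, miR-181d had 1 (3.36%), miR-565 had 5 (9.55%) and miR-574-3p had 1 (3.45%). With only the 3 arrays of the miRNA, the counts were 8 (9.19%), 0 (0%), 14 (24.9%), 10 (19.2%) and 2 (4.38%). With the slide as a random block, the mean of 5 miRNAs, miR-629*, miR-574-3p and miR-565 had 0 (0.339%, 0.0565%, 0.526% and 0.148%), while 11 genes were called for miR-181d against the others (31.5%) and 11 differed between miRNAs (29.5%). With miR-565 replicate 1 also left out, an alternative chosen after seeing the data, the counts were 21 (46.1%), 16 (30.8%), 17 (32%), 24 (57.3%) and 18 (39.2%), with 7 (14.7%) for miR-181d, 2 (12.3%) for miR-629* and 4 (3.91%) for miR-766 against the others and 10 (25.3%) differing between miRNAs. The call of FTH1 for miR-574-3p against the others was lost (0 called) with no trend, with the slide block and with the mean of all probes. No channel difference was called (0) without quantile normalization, likewise added later. Leaving out each array in turn gave 1 to 15 (0.617% to 28.1%), 5 to 13 (9.46% to 27.1%), 0 to 10 (1.08% to 23.1%), 1 to 17 (1.26% to 35.6%) and 0 to 16 (0.239% to 19.4%). For the mean it gave 18 to 26 (34.6% to 57.7%). It gave 0 to 1 for miR-574-3p against the others (0.369% to 5.71%) and 0 to 1 differing between miRNAs (0.235% to 3.82%). For the channels it gave 2 to 7, and the share of all genes was not computed for these channel fits or for the one without quantile normalization. Direction turned for AKR1C1 in the mean with all probes averaged (-0.018), and for NFE2L2 with miR-565 without replicate 1 (0.29, or 0.28 with the slide block too, and 0.00015, not called, with all probes averaged; -0.22 to 0.29 over the arrays left out), and the uncalled NFE2L2 value with miR-574-3p went from 0.23 to -0.017 with the slide block. The uncalled NQO1 values near 0 also turned, in the mean (-0.0039, up to 0.0040), with miR-181d (0.016, down to -0.064), with miR-565 (-0.015, up to 0.015) and with miR-766 (0.013, down to -0.0055). The causes were not tested beyond the arrays left out. Correlations of deviations between same-numbered arrays ran from -0.39 to 0.51 over 30 pairs, with a median of 0.057 and 13 of them over 0.1. They were not set against arrays of different numbers, so that pairing was not tested. With the replicate number as a block, 21 genes (41.7%) were called in the mean over miRNAs in place of 20 (41.6%). The counts for the single miRNAs were as without it, beside 5.43%, 15.8%, 5.41%, 9.81% and 1.76% of all genes.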
